A study of Mus musculus with 16 samples.

Results

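Cell cycle genes were measured by RNA sequencing of the left ventricle in PKM2fl/fl and PKM2-/- mice at baseline, after sham surgery and after myocardial infarction (MI), with both operations sampled at 3 days. The 46 genes are listed by name and were found by gene symbol among the 55492 genes of the deposited table of normalized counts. Finding them by symbol used no measured value, but earlier results of these data were known when the genes were chosen. They were put into 4 groups by their known roles: 13 genes of S phase (DNA replication), 7 that control the step from G1 to S phase, 24 of mitosis and 2 inhibitors of cyclin-dependent kinases (CDKs). The 16 libraries came from male C57BL/6 mice of 8 to 12 weeks, with 2 libraries per genotype at baseline, 3 per genotype after sham surgery and 3 per genotype after MI. PKM2fl/fl mice carry loxP sites around exon 10 of Pkm, the exon specific to the M2 isoform of pyruvate kinase, and served as controls. PKM2-/- mice descend from a cross of PKM2fl/fl with CMV-Cre, which deletes the exon in the whole body, and Cre was bred out afterwards, so the deletion was not restricted to cardiomyocytes. MI was made by lasting ligation of the left anterior descending (LAD) coronary artery, sham mice had the operation without ligation, and baseline mice had none. Whole ventricular tissue was sequenced, so fewer cells of a type and less RNA per cell cannot be told apart in these counts.

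A cell that divides first passes G1, in which D-type cyclins with CDK4 and CDK6 and then cyclin E with CDK2 release E2F transcription factors from the retinoblastoma protein. E2F factors switch on the genes that load the MCM helicase, make nucleotides and copy DNA in S phase. In G2 and mitosis, the transcription factors B-MYB and FOXM1 switch on cyclin B and its kinase CDK1. They also switch on the proteins that build the spindle and split the cell. In the adult ventricle most cardiomyocytes have left the cycle, while fibroblasts, endothelial cells and leukocytes can divide after injury.

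Pkm itself, which the deletion targets, had 7779 to 9602 normalized counts in PKM2fl/fl hearts without MI and 11710 to 14242 in PKM2-/- hearts without MI. The whole-gene count holds both isoforms and does not show the loss of exon 10. Library size was 20623769 to 71855101 reads, and 15.9% to 49.4% of reads fell on loci related to ribosomal RNA. All 8 ventricular cardiomyocyte markers checked were detected in every library. Their summed normalized count was 812941 to 1048780 in the 10 hearts without MI and 179512 to 409867 in the 6 hearts after MI. The 6 fibroblast markers summed to 14404 to 38717 without MI and to 115293 to 154614 after MI, and the 7 leukocyte markers to 3646 to 10212 without MI and to 20804 to 37218 after MI. The fibroblast and leukocyte markers were likewise detected in every library. Within the fibroblast sum, Pdgfra, Col1a1, Col3a1 and Postn were higher in every MI heart than in every sham heart of its genotype. Dcn was lower without overlap, with 8270 to 12625 after sham and 6364 to 7840 after MI in PKM2fl/fl hearts. In PKM2-/- hearts it had 8071 to 13364 and 6806 to 7426. Tcf21 overlapped between sham and MI hearts in both genotypes. These marker sums move with the infarct comparisons described here, and their part in those results was not tested.

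Promoter sequences were searched for the letters that these groups of genes are known for, and are printed for 7 members. The 7 do not stand for all promoters searched, many of which lack the letters of their group. Counts of Cdc20 and Mcm6, 2 of the 7, are not described singly here. RefSeq promoters on GRCm38.p6 were matched for 35 of the 46 genes by symbol, and the 250 bases before each start were searched on both strands. E2F-type motifs (the letters TTCCCGC and the variants TTCGCGC, then TTGCCGC, then TTGGCGC) stood in 6 of 11 S phase promoters (54.5%), in 3 of 18 mitotic promoters (16.7%) and in 9.01% of the promoters of all 27025 genes. The cell cycle homology region, or CHR (TTTGAA or TTCGAA), stood in 2 of 11 S phase promoters (18.2%), in 9 of 18 mitotic promoters (50%) and in 19.6% of all. CCAAT boxes stood in 8 of 11 (72.7%), in 16 of 18 (88.9%) and in 37.5% of all. A CHR together with a CCAAT box was found in 9 of the 18 mitotic promoters (50%), in 2 of the 11 S phase promoters (18.2%) and in 7% of all. In the 100 bases before the start, the E2F-type share was 18.2% for S phase and 5.56% for mitotic genes, against 4.37% of all, and CHR with CCAAT stood in 33.3% of mitotic, 0 of 11 S phase and 1.36% of all promoters. These matches are descriptions of letters, and binding was not measured.

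The 120 bases before the start are shown 5' to 3' in the direction of transcription, with the motifs above in capitals and neighbouring or overlapping motifs merged into one run. The mitotic genes are Cdk1 (chr10:69352913-69353032, reverse strand), Cdc20 (chr4:118437344-118437463, reverse strand), Ube2c (chr2:164769809-164769928, forward strand) and Ccnb1 (chr13:100786487-100786606, reverse strand). The S phase genes are Mcm6 (chr1:128359706-128359825, reverse strand) and Mcm2 (chr6:88898781-88898900, reverse strand), and the CDK inhibitor is Cdkn1a (chr17:29090859-29090978, forward strand), for which the upstream start of 2 was taken. All coordinates are on GRCm38.p6.
Cdk1: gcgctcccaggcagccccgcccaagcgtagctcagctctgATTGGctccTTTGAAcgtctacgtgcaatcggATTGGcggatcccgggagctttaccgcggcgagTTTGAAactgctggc
Cdc20: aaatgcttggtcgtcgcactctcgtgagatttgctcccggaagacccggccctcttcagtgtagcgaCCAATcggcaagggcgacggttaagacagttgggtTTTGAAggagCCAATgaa
Ube2c: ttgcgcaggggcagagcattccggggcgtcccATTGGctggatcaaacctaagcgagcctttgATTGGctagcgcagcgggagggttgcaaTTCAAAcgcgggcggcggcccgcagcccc
Ccnb1: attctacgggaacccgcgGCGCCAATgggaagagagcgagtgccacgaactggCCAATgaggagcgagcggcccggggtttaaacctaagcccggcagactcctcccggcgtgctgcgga
Mcm6: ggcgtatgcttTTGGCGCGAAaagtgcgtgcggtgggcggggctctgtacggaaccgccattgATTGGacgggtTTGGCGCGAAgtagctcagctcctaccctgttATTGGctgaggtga
Mcm2: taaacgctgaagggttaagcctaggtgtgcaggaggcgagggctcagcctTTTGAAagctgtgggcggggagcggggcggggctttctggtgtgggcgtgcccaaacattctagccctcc
Cdkn1a: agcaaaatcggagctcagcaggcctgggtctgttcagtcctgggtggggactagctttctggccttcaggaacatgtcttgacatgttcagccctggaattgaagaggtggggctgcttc

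The Cdk1 stretch holds 2 CHR and 2 CCAAT boxes, the boxes read on the opposite strand, and Cdc20 has a CHR between 2 CCAAT boxes. Ube2c has a CHR nearest the start and 2 CCAAT boxes upstream of it, all on the opposite strand. Ccnb1 has no CHR of these letters, and its first run in capitals is an E2F-type motif that overlaps a CCAAT box. In Mcm6 each of the 2 long runs in capitals is a pair of overlapping E2F-type motifs, on either strand. Mcm2 has a CHR and no E2F-type motif in this window, and the Cdkn1a window holds none of the motifs.

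Nearly the whole set was higher after MI in both genotypes, and the median change was larger among mitotic than among S phase members. A gene was called where limma on log2(normalized count + 1) gave a p under 0.05 after Benjamini-Hochberg adjustment over all genes tested, together with a fold change of 2 or more. This scale understates the change of low genes. In PKM2fl/fl hearts, 38 of the 45 members tested were called higher after MI than after sham and 0 lower, beside 12.4% called higher and 11.1% called lower among all 20576 genes tested. In PKM2-/- hearts, 41 were called higher and 0 lower, beside 14.5% and 14.3% of all genes. The members were chosen with earlier results of these data known, so these counts are not independent support. Every one of the 23 mitotic members tested was called in both genotypes, with a median log2 fold change of 3.44 in PKM2fl/fl and 3.73 in PKM2-/- hearts. Of the 13 S phase members 12 were called in each genotype, with medians of 2.17 and 2.38. The median over all genes tested was -0.0025 and 0.010. Of the 7 members that control the step from G1 to S phase, 3 were called in PKM2fl/fl and 5 in PKM2-/- hearts. With adjusted p alone, 43 members rose and Ccnd2 fell in each genotype, beside 24.8% of all genes higher and 25.3% lower in PKM2fl/fl and 28.7% and 28.1% in PKM2-/- hearts. Every MI heart was above every sham heart of its genotype in 43 members and below in 1, beside 30.0% and 29.0% of all genes in PKM2fl/fl and 31.7% and 30.6% in PKM2-/- hearts.

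**Figure D1:**
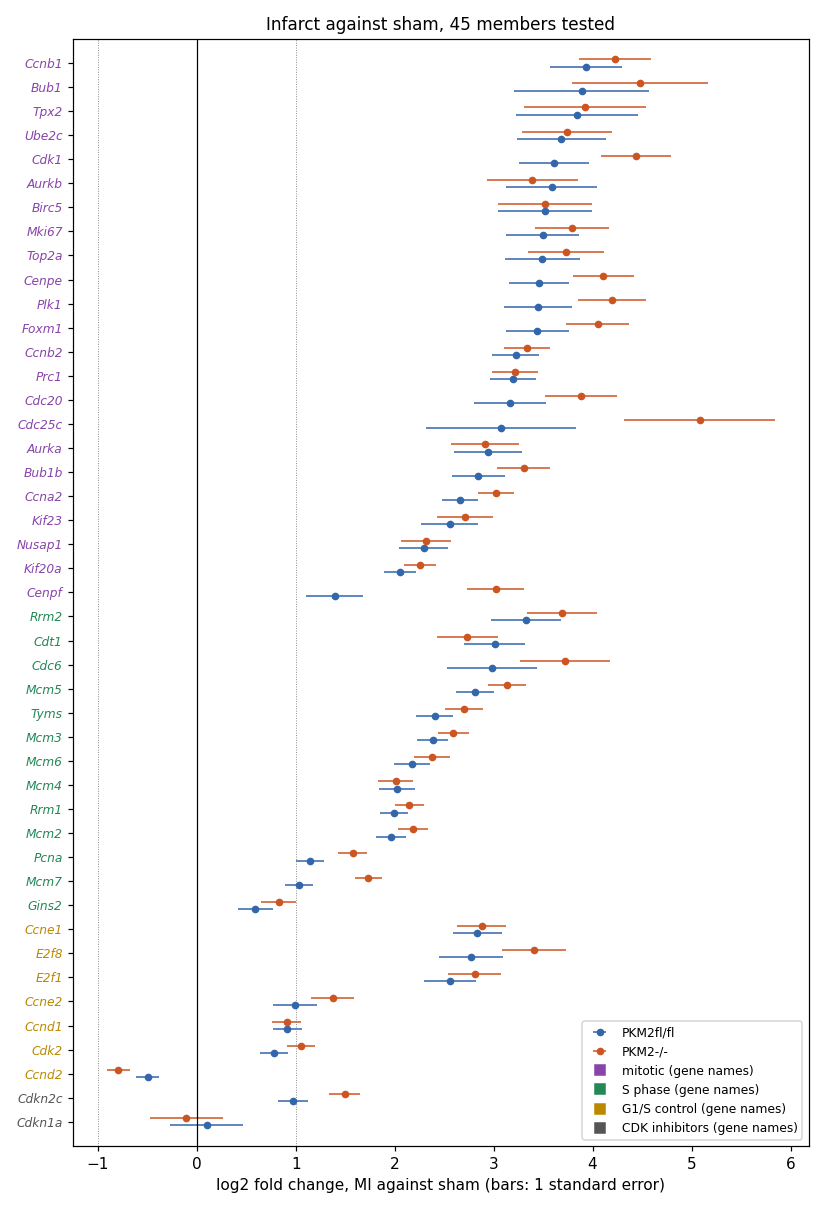
Log2 fold change of MI against sham (x axis) for the 45 members tested, in PKM2fl/fl (blue) and PKM2-/- (orange) hearts, with bars of 1 standard error, dotted lines at a 2-fold change and gene names coloured by role. Mitotic genes reach from 1.40 for Cenpf to 3.93 for Ccnb1 in PKM2fl/fl hearts, S phase genes from 0.59 for Gins2 to 3.33 for Rrm2, and Ccnd2 lies below 0 in both genotypes.

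Kif11 and Cdc25c entered these counts in a particular way. Kif11, the motor that pushes spindle poles apart, had a mean under the filter of 10 normalized counts and was not tested. It stood at 0 in 9 of the 16 libraries, at 0, 33.2 and 7.32 after MI in PKM2fl/fl and at 11.3, 3.81 and 5.77 after MI in PKM2-/- hearts. In an exact two-sided permutation test, the difference between MI and sham had p = 0.4 in PKM2fl/fl hearts, and in PKM2-/- hearts p was 0.1, the smallest that 3 hearts against 3 allow. Fits that kept such low genes differed on Kif11 in PKM2fl/fl hearts, with log2 fold changes of 4.12 with edgeR on recovered reads (adjusted p = 0.0219, which passed), 3.91 with DESeq2 (adjusted p = 0.0797) and 2.04 with limma without a filter (adjusted p = 0.166). In PKM2-/- hearts they were 2.82 (adjusted p = 0.154 with edgeR), 2.82 (adjusted p = 0.255 with DESeq2) and 2.19 (adjusted p = 0.117 with limma without a filter), and none passed. Cdc25c, the phosphatase that activates CDK1, passed the filter only through its MI libraries, so its call is not read as support. Without Cdc25c, a count made after the data were seen, 37 of 44 members were called in PKM2fl/fl and 40 of 44 in PKM2-/- hearts, among them 22 of 22 mitotic members in each, with mitotic medians of 3.44 and 3.63. It had 7.85 and 1.99 at baseline, 14.7, 24.6 and 7.84 after sham and 114, 140.4 and 129 after MI in PKM2fl/fl hearts, and 0 and 3.67 at baseline, 11.3, 0 and 2.16 after sham and 104, 118 and 119.7 after MI in PKM2-/- hearts. The log2 fold change after MI was 3.07 (standard error 0.76) and 5.08 (0.76), and the second was the highest of the mitotic members in PKM2-/- hearts. With a pseudocount of 0.1 its log2 fold change in PKM2fl/fl hearts was 3.16 and the adjusted p no longer passed.

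Among the mitotic members, Mki67 encodes Ki-67, the coat of mitotic chromosomes used as a proliferation marker. In PKM2fl/fl hearts it had 137 and 60.4 at baseline, 272, 509 and 246 after sham and 3628, 3335 and 4053 after MI, in normalized counts. In PKM2-/- hearts it had 127 and 40.3 at baseline, 400.3, 242 and 309 after sham and 3944, 4315 and 4720.3 after MI. MI hearts, sham hearts and baseline hearts did not overlap in either genotype. Mki67 was 11.3-fold higher after MI than after sham in PKM2fl/fl (log2 fold change 3.49, standard error 0.37, adjusted p = 3.35e-06 from limma) and 13.9-fold higher in PKM2-/- hearts (3.79, 0.37, adjusted p = 1.02e-06). Top2a, the topoisomerase that untangles sister chromatids, had 90.3 and 23.9 at baseline, 193, 294 and 156 after sham and 2125, 2121 and 2829.6 after MI in PKM2fl/fl hearts. It had 53.6 and 32.99 at baseline, 302, 188 and 151 after sham and 2336, 2818 and 3115 after MI in PKM2-/- hearts, so the 3 conditions were again apart. Its fold changes after MI, 11.3 and 13.3, were close to those of Mki67.

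**Figure D2:**
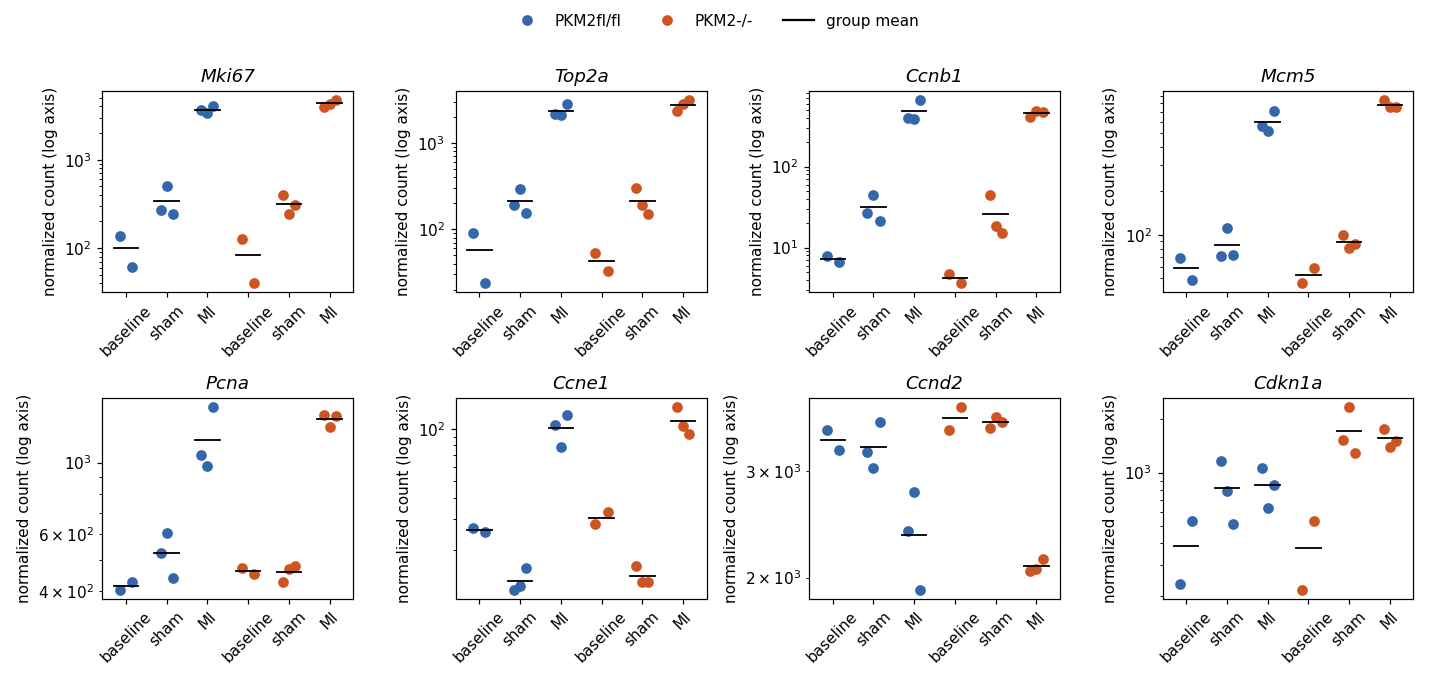
Normalized counts (y axis, log scale, a different range in each panel) of 8 members in every library, with PKM2fl/fl in blue, PKM2-/- in orange and the group mean as a line. Mki67, Top2a and Ccnb1 lie lowest at baseline, higher after sham and highest after MI, Mcm5 and Pcna lie highest after MI, Ccne1 is lowest after sham, Ccnd2 is lowest after MI, and Cdkn1a overlaps between sham and MI.

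Cyclin B1 and its kinase stood among the mitotic members with the larger changes. Ccnb1, cyclin B1, had 7.85 and 6.63 at baseline, 27.02, 45.2 and 21.6 after sham and 400.4, 389 and 661 after MI in PKM2fl/fl hearts, and 4.66 and 3.67 at baseline, 45.01, 18.3 and 15.1 after sham and 407, 481 and 475 after MI in PKM2-/- hearts. No MI heart fell within the range of the sham hearts, and the log2 fold changes were 3.93 (standard error 0.36, adjusted p = 9.28e-07 from limma), the highest of the members in PKM2fl/fl, and 4.23 (0.36, adjusted p = 3.46e-07). A pseudogene, Ccnb1-ps, was counted separately at 0 to 10.7. Cdk1 had 23.5 and 13.3 at baseline, 57.6, 75.96 and 33.3 after sham and 603, 506 and 924 after MI in PKM2fl/fl hearts, and 26.8 and 11 at baseline, 51.4, 32.6 and 32.4 after sham and 772, 894 and 869.9 after MI in PKM2-/- hearts. All MI values were above all sham values, with log2 fold changes of 3.61 (0.35) and 4.44 (0.35). Plk1, a kinase of mitotic entry and cytokinesis, had 7.85 and 7.96 at baseline, 22.9, 47.2 and 22.6 after sham and 322, 301 and 359 after MI in PKM2fl/fl hearts, and 2.33 and 7.33 at baseline, 27.3, 15.7 and 19.4 after sham and 340.5, 381 and 453 after MI in PKM2-/- hearts. Its log2 fold changes after MI were 3.44 (0.34) and 4.20 (0.34), with no overlap.

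Foxm1, a transcription factor of the mitotic genes, had 21.98 and 12.6 at baseline, 30.6, 67.7 and 22.1 after sham and 373, 376 and 454 after MI in PKM2fl/fl hearts, and 18.6 and 18.3 at baseline, 36.98, 26.1 and 28.05 after sham and 478, 525 and 542 after MI in PKM2-/- hearts. It rose by 3.44 (standard error 0.32, adjusted p = 9.47e-07 from limma) and 4.05 (0.32, adjusted p = 1.72e-07) on the log2 scale after MI, and MI and sham hearts did not overlap. Birc5, which encodes survivin of the chromosomal passenger complex, had 6.28 and 3.98 at baseline, 19.98, 34.9 and 15.7 after sham and 241, 228 and 338 after MI in PKM2fl/fl hearts, and 4.66 and 0 at baseline, 32.2, 24.8 and 25.9 after sham and 299.9, 306 and 375 after MI in PKM2-/- hearts. Its counts at baseline rested on few reads, and its log2 fold change after MI was 3.52 (0.47) and 3.52 (0.47). Ccnb2, cyclin B2, was at 18.8 and 21.2 at baseline, 31.7, 44.1 and 31.4 after sham and 294, 302 and 434 after MI in PKM2fl/fl hearts, and 16.3 and 12.8 at baseline, 36.98, 24.8 and 43.2 after sham and 347, 348 and 365 after MI in PKM2-/- hearts. A separately counted pseudogene, Ccnb2-ps, had 14.6 to 38.6 in the same libraries, so how reads were split between the pair is uncertain. Ube2c, the ubiquitin conjugating enzyme of the anaphase promoting complex, had 19.6 and 7.96 at baseline, 24.7, 36.95 and 23.04 after sham and 363, 308 and 443 after MI in PKM2fl/fl hearts, and 12.8 and 1.83 at baseline, 22.5, 33.96 and 28.05 after sham and 319, 422 and 423 after MI in PKM2-/- hearts. Both genes were clear of the sham range in every MI heart.

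At the low end of the mitotic group stood Cenpf and Kif20a. Cenpf, a large protein of the outer kinetochore, had the smallest mitotic change in PKM2fl/fl hearts, 1.40 (standard error 0.29, adjusted p = 8.93e-04 from limma), and changed by 3.02 (0.29, adjusted p = 8.11e-07) in PKM2-/- hearts. It had 341 and 732 at baseline, 493, 277 and 277 after sham and 785, 900.2 and 980.4 after MI in PKM2fl/fl hearts, and 252 and 354 at baseline, 125, 84.9 and 147 after sham and 752, 1035 and 1099 after MI in PKM2-/- hearts. Unlike Mki67, Cenpf was not at its lowest at baseline in either genotype. Kif20a, a kinesin of cytokinesis, had the smallest mitotic change in PKM2-/- hearts (2.26, 0.16, adjusted p = 7.83e-08 from limma) and 2.05 (0.16) in PKM2fl/fl hearts. Its span shares 4930 bases with Cdc23, and that of Prc1 shares 21669 bases with Rccd1. Since the strand setting of the counting is not given in the sources used here, reads in such overlaps cannot be assigned with certainty.

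Replication genes rose together after MI and covered a wider range. Mcm2 and Mcm5 encode subunits of the helicase that opens DNA at origins. Mcm2 had 118 and 90.2 at baseline, 108, 138 and 114 after sham and 482, 407 and 519 after MI in PKM2fl/fl hearts, and 147 and 121 at baseline, 154, 150.2 and 140.2 after sham and 739, 594 and 701 after MI in PKM2-/- hearts. Mcm5 had 69.1 and 49.1 at baseline, 71.7, 111 and 73.04 after sham and 561, 517 and 711 after MI in PKM2fl/fl hearts, and 46.6 and 58.6 at baseline, 99.7, 80.97 and 86.3 after sham and 843, 760.2 and 756 after MI in PKM2-/- hearts. For both genes MI hearts stood clear of all others, and sham hearts overlapped baseline hearts in Mcm2 but lay above them in Mcm5, in both genotypes. Their log2 fold changes after MI were 1.97 (standard error 0.15, adjusted p = 1.96e-07 from limma) and 2.18 (0.15, adjusted p = 6.46e-08) for Mcm2. For Mcm5 they were 2.81 (0.19) and 3.13 (0.19).

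Pcna, the sliding clamp of the DNA polymerases, had 405 and 428 at baseline, 527, 607 and 440.2 after sham and 1056, 976 and 1488 after MI in PKM2fl/fl hearts, and 473 and 453 at baseline, 426, 469 and 478 after sham and 1406, 1292 and 1395 after MI in PKM2-/- hearts. It was called at 1.15 (standard error 0.14, adjusted p = 1.30e-05 from limma) and 1.57 (0.14, adjusted p = 5.59e-07), which is a smaller log2 change than those of the MCM genes named above. Rrm2, the regulated subunit of ribonucleotide reductase, had 41.6 and 29.2 at baseline, 38.2, 56.5 and 36.3 after sham and 352, 378 and 634 after MI in PKM2fl/fl hearts, and 44.3 and 14.7 at baseline, 57.9, 52.2 and 30.2 after sham and 624, 588 and 571 after MI in PKM2-/- hearts. Its change in PKM2fl/fl hearts, 3.33 (0.35), was the highest of the S phase members, and in PKM2-/- hearts it was 3.69 (0.35). Cdc6, which loads the MCM helicase, had 21.98 and 5.31 at baseline, 12.3, 20.5 and 18.6 after sham and 124, 129 and 171 after MI in PKM2fl/fl hearts, and 11.7 and 7.33 at baseline, 22.5, 6.53 and 10.8 after sham and 147, 183 and 176 after MI in PKM2-/- hearts. With 3.72 (0.46) it led the S phase members in PKM2-/- hearts, beside 2.98 (0.46) in PKM2fl/fl hearts. Gins2, part of the GINS complex that joins the helicase, was the only S phase member under a 2-fold change, at 0.59 (adjusted p = 0.0114 from limma) and 0.83 (adjusted p = 9.22e-04). It had 197 and 180.5 at baseline, 154, 202 and 218 after sham and 254, 288 and 318 after MI in PKM2fl/fl hearts, and 128 and 123 at baseline, 156, 255 and 208 after sham and 387, 322 and 374 after MI in PKM2-/- hearts, and MI and sham hearts did not overlap. Without sham replicate 1 of PKM2fl/fl its change in that genotype was 0.44 and the adjusted p no longer passed.

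Genes of the G1 to S step changed unequally, with E2f1, E2f8 and Ccne1 called in both genotypes. E2f1, an activating E2F factor, had 23.5 and 18.6 at baseline, 25.9, 40.03 and 26.5 after sham and 164, 171 and 217 after MI in PKM2fl/fl hearts, and 23.3 and 12.8 at baseline, 41.8, 26.1 and 32.4 after sham and 210.0, 235 and 265 after MI in PKM2-/- hearts. E2f8, a repressing E2F factor, had 12.6 and 9.29 at baseline, 24.1, 48.2 and 28.4 after sham and 232, 216 and 229 after MI in PKM2fl/fl hearts, and 29.1 and 11 at baseline, 28.9, 18.3 and 24.8 after sham and 253, 245 and 287 after MI in PKM2-/- hearts. MI hearts were above all others in both genes, with log2 fold changes of 2.56 and 2.81 for E2f1 and of 2.77 and 3.41 for E2f8. Ccne1, cyclin E1, had 26.7 and 25.2 at baseline, 11.8, 12.3 and 15.7 after sham and 105, 78.2 and 121 after MI in PKM2fl/fl hearts, and 27.97 and 32.99 at baseline, 16.1, 13.1 and 12.9 after sham and 134, 104 and 93.8 after MI in PKM2-/- hearts. It was lowest after sham and highest after MI with no overlap, and was called at 2.83 (standard error 0.25, adjusted p = 5.86e-07 from limma) and 2.88 (0.25, adjusted p = 3.54e-07). Ccne2, cyclin E2, had 137 and 137 at baseline, 145, 172 and 168 after sham and 294, 282 and 405 after MI in PKM2fl/fl hearts, and 152 and 169 at baseline, 90.03, 161 and 187 after sham and 320.2, 369.6 and 401 after MI in PKM2-/- hearts. It rose by 0.99, just under the fold threshold, and by 1.37, and its span shares 5622 bases with Ints8.

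The D-type cyclins, which act first in G1, moved in opposite directions. Ccnd1 had 1363 and 1056 at baseline, 679.7, 934 and 978 after sham and 1788, 1435 and 1622 after MI in PKM2fl/fl hearts, and 929 and 980.4 at baseline, 1103, 1076 and 1121 after sham and 2449.8, 1885 and 1903 after MI in PKM2-/- hearts. Ccnd2 had 3516 and 3253 at baseline, 3227, 3040.5 and 3619 after sham and 2393, 2769 and 1911 after MI in PKM2fl/fl hearts, and 3514 and 3841 at baseline, 3545, 3693 and 3630.1 after sham and 2054, 2065 and 2148 after MI in PKM2-/- hearts. Every MI heart was above the sham hearts of its genotype in Ccnd1 and below them in Ccnd2. Ccnd1 rose by 0.91 (standard error 0.15, adjusted p = 1.05e-04 from limma) and 0.91 (0.15, adjusted p = 7.96e-05) on the log2 scale. Ccnd2 changed by -0.50 (0.12, adjusted p = 0.00216 from limma) and -0.79 (0.12, adjusted p = 3.11e-05), under a 2-fold change in both. Cdk2, the partner of cyclin E, had 203 and 173 at baseline, 145, 166 and 176 after sham and 284, 237 and 324 after MI in PKM2fl/fl hearts, and 184 and 213 at baseline, 174, 162 and 166 after sham and 383, 318 and 343 after MI in PKM2-/- hearts. It rose by 0.78 and 1.05, and its annotated span lies wholly inside that of Pmel. When libraries were scaled to their total reads, the adjusted p of Ccnd1, Cdk2, Gins2 and Cdkn2c in PKM2fl/fl hearts and of Ccnd2 in both genotypes no longer passed. That scaling moved the median of all genes by -0.17 in PKM2fl/fl and 0.52 in PKM2-/- hearts. The fall of Ccnd2 in PKM2fl/fl hearts also missed the threshold when total reads were taken without the loci related to ribosomal RNA.

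The pair of CDK inhibitors behaved differently from each other. Cdkn2c encodes p18, which blocks CDK4 and CDK6, and had 188 and 154 at baseline, 159, 192 and 174 after sham and 314, 345 and 372 after MI in PKM2fl/fl hearts, and 156 and 163 at baseline, 183, 120.1 and 145 after sham and 449, 389 and 411 after MI in PKM2-/- hearts. It rose after MI by 0.97 (standard error 0.15, adjusted p = 9.55e-05 from limma) and 1.49 (0.15, adjusted p = 1.51e-06), without overlap. Cdkn1a encodes p21, a target of p53 that blocks CDKs and binds PCNA, and had 235 and 531 at baseline, 1157, 787 and 510.3 after sham and 1060.4, 632 and 854 after MI in PKM2fl/fl hearts. In PKM2-/- hearts it had 218 and 535 at baseline, 1535, 2356 and 1299 after sham and 1775, 1398 and 1516 after MI. Sham and MI hearts overlapped in both genotypes, and the log2 fold changes were 0.10 (95% interval -0.68 to 0.88, adjusted p = 0.841 from limma) and -0.11 (-0.89 to 0.68, adjusted p = 0.825). Their sign turned when libraries were scaled to total reads. Cdkn1a was the 1 member tested that missed the adjusted p in both genotypes.

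Sham hearts stood between baseline and MI hearts in mitotic genes, and near baseline in S phase genes. For each library the mean of log2(normalized count + 1) was taken over the 13 S phase members and over the 23 mitotic members tested. The S phase mean was 6.47 to 6.81 at baseline, 6.75 to 7.07 after sham and 8.81 to 9.38 after MI. The mitotic mean was 4.03 to 5.11 at baseline, 5.27 to 6.37 after sham and 8.93 to 9.36 after MI. The S phase mean minus the mitotic mean was 1.70 and 2.03 at baseline, 1.01, 0.69 and 1.16 after sham and -0.045, -0.12 and -0.045 after MI in PKM2fl/fl hearts. In PKM2-/- hearts it was 2.00 and 2.44 at baseline, 0.99, 1.53 and 1.29 after sham and 0.33, -0.029 and -0.017 after MI. The 3 conditions did not overlap in this difference within either genotype. After MI all 3 PKM2-/- values were above the 3 PKM2fl/fl values, while the genotypes overlapped at baseline and after sham. The closest values after MI were -0.029 in PKM2-/- and -0.045 in PKM2fl/fl hearts. That gap is small beside a standard deviation of 0.20 among the 3 PKM2-/- hearts. Taken singly, the S phase mean and the mitotic mean each overlapped between the genotypes after MI. The mitotic mean includes Cdc25c, which passed the filter only through its MI libraries, and the difference was not computed without it. Gene length does not change between libraries, so only the shift of the difference between libraries is read here, not its level.

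**Figure D3:**
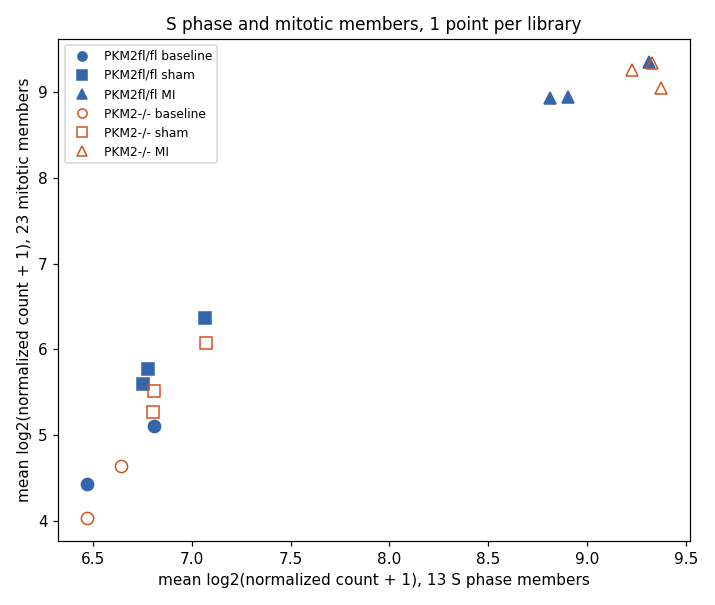
Mean log2(normalized count + 1) of the 13 S phase members (x axis) and of the 23 mitotic members tested (y axis), with 1 point per library. Baseline, sham and MI libraries lie in order from lower left to upper right, and from baseline to sham the step is mainly upward, with mitotic means of 4.03 to 5.11 at baseline and 5.27 to 6.37 after sham.

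The comparison of sham with baseline set hearts with the operation beside hearts without one. It shares its sham libraries with the MI comparison, so both are given side by side and not correlated. Among PKM2-/- hearts, 11 of 45 members were called, 9 higher and 2 lower, beside 2.06% called higher and 0.608% called lower among all genes. The higher ones were Cdkn1a and 8 mitotic genes (Birc5, Ccnb1, Top2a, Plk1, Mki67, Ccnb2, Ube2c and Tpx2), and the lower ones were Cenpf and Ccne1. Prc1 passed the adjusted p alone, at a log2 fold change of 1.00. In PKM2fl/fl hearts, 0 members were called by limma, beside 0.17% of all genes, and 21 had an unadjusted p under 0.05, beside 8.81% of all genes. The median log2 fold change of the mitotic members was 1.10 in PKM2fl/fl and 1.11 in PKM2-/- hearts, and that of the S phase members 0.21 and 0.32, beside 0.018 and 0.014 over all genes. Marker sums moved the same way, with fibroblast markers at 14404 to 17747 at baseline and 20975 to 38717 after sham, leukocyte markers at 3646 to 5041 and 5229 to 10212, and neutrophil markers at 82.4 to 187 and 224 to 1312. Baseline and sham hearts did not overlap in any of these 3 sums, and their part in the sham results was not tested. Not every marker in the fibroblast sum was apart, and Tcf21 overlapped in both genotypes. Every sham heart was above both baseline hearts of its genotype in 17 of 23 mitotic and 5 of 13 S phase members in PKM2fl/fl hearts, beside 17.4% of all genes. The counts in PKM2-/- hearts were 17 and 4, beside 18.4%. None of the 13 S phase members was called in either genotype by limma. An unadjusted p under 0.05 was found for 2 in PKM2fl/fl hearts, beside 1813 of 20576 genes. In PKM2-/- hearts it was found for 3, beside 3886 of 20576 genes.

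Mki67 was 3.53-fold higher after sham than at baseline in PKM2fl/fl (log2 fold change 1.82, standard error 0.42, adjusted p = 0.0946 from limma, not called) and 4.28-fold in PKM2-/- hearts (2.10, 0.42, adjusted p = 0.01, called). Top2a gave 2.12 (0.43, adjusted p = 0.0605) and 2.26 (0.43, adjusted p = 0.00777), also with limma. For both genes the estimates of the genotypes lay within a standard error of each other. The genotype difference after sham minus that at baseline, tested after the data were seen, passed in 0 of 20576 genes with limma. Birc5 had the largest change in PKM2-/- hearts, 3.58 (0.53, adjusted p = 0.00226 from limma), where 1 baseline library stood at 0, and 1.95 (0.53) in PKM2fl/fl hearts. Ccnb1 changed by 2.24 and Plk1 by 2.02 in PKM2-/- hearts, beside 1.91 and 1.75, not called, in PKM2fl/fl hearts. Cdkn1a rose by 2.29 (0.41, adjusted p = 0.0062 from limma) in PKM2-/- hearts, a 4.89-fold change, and all 3 sham hearts were above both baseline hearts. With 1 library left out the change was 1.64 to 2.94, and without baseline replicate 1 of PKM2-/- it was 1.64 and no longer passed (adjusted p = 0.0865 from limma). In PKM2fl/fl hearts its change was 1.13 (0.41, adjusted p = 0.366 from limma), with overlap. Ccne1 changed by -1.07 (0.28, adjusted p = 0.037 from limma) and Cenpf by -1.35 (0.32, adjusted p = 0.0246) in PKM2-/- hearts.

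**Figure D4:**
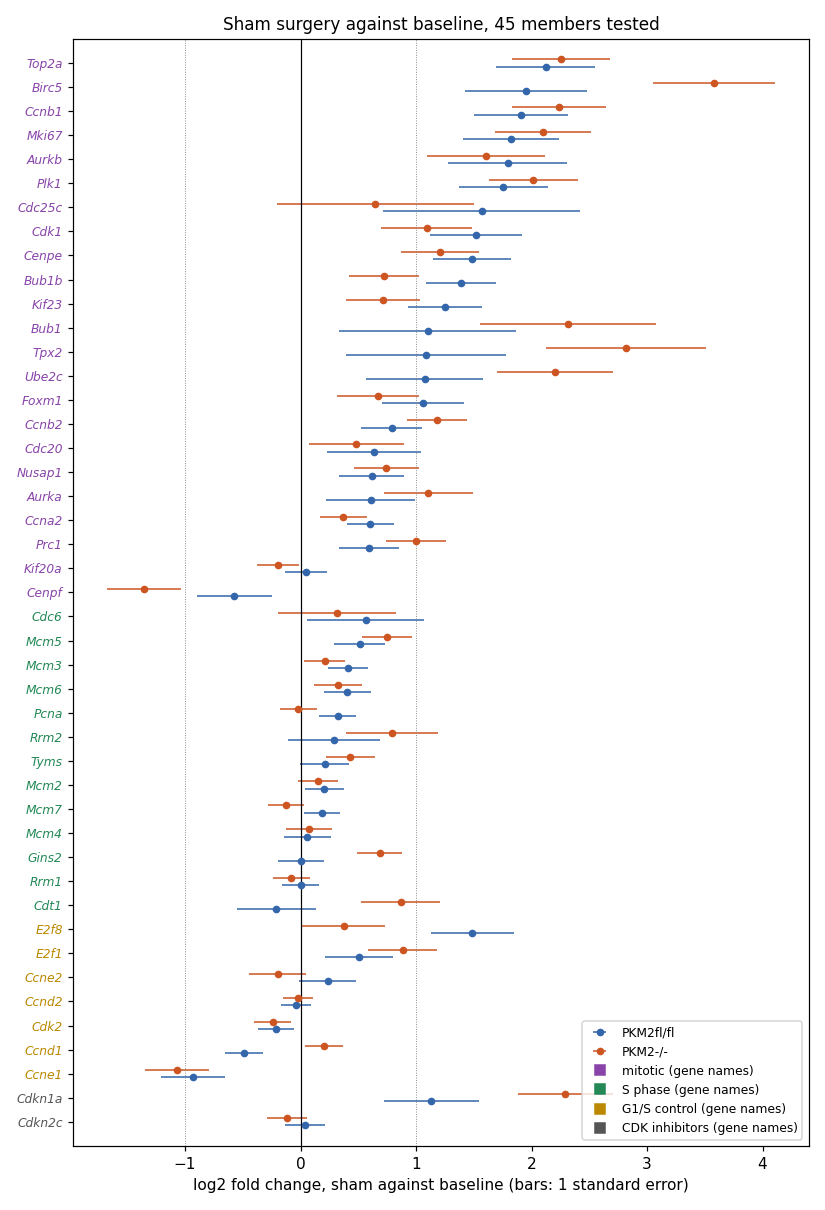
Log2 fold change of sham surgery against baseline (x axis) for the 45 members tested, in PKM2fl/fl (blue) and PKM2-/- (orange) hearts, with bars of 1 standard error and dotted lines at a 2-fold change. Most mitotic genes lie to the right of 0 in both genotypes, with medians of 1.10 and 1.11, while S phase genes stay nearer 0, and Ccne1 and Cenpf lie to the left.

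These calls depended on the tool and on single libraries. The count in PKM2fl/fl hearts was 11 with DESeq2, 14 with edgeR without a filter, 0 with edgeR with its filter, 6 without sham replicate 3 and 1 without baseline replicate 1. Among all genes, limma called 35 in PKM2fl/fl hearts, 212 without sham replicate 3 and 7 to 17 without each of the other libraries, edgeR 22 with its filter and 487 of 40116 without one, and DESeq2 238 of 40116. The count in PKM2-/- hearts was 11 with DESeq2 and 6 with edgeR with its filter, 3 without baseline replicate 2, 7 without baseline replicate 1 and 7 without sham replicate 1. All genes called there numbered 548 with limma, 395 with edgeR with its filter, 939 of 40116 without one and 643 of 40116 with DESeq2, and with limma 404 and 243 without baseline replicates 1 and 2 and 386 to 588 without each sham library. Ccne1 passed the adjusted p in 3 of 16 alternatives (0.0357 to 0.590). Birc5 passed in all 16 (3.62e-07 to 0.0412), Cdkn1a in 15 (3.22e-35 to 0.0865) and Cenpf in 11 (1.87e-11 to 0.211). The adjusted p with DESeq2 was 0.0017 for Birc5, 3.64e-04 for Cdkn1a and 0.0029 for Cenpf. With edgeR with its filter it was 0.012, 0.014 and 0.043. In PKM2fl/fl hearts Mki67 passed in 5 of 16 (2.70e-21 to 0.641) and Top2a in 6 (8.00e-22 to 0.456). DESeq2 gave 0.0197 and 0.0104 for these genes, and edgeR with its filter 0.0908 for both. The lowest values of Birc5, Cdkn1a, Cenpf, Mki67 and Top2a thus came from other settings. In each genotype the sham heart with the highest mitotic mean, replicate 2 in PKM2fl/fl (6.37) and replicate 1 in PKM2-/- (6.08), also had the highest leukocyte marker sum (10212 and 8712) and the highest fibroblast marker sum (38717 and 38072) of its group. The neutrophil sum was also highest in replicate 2 in PKM2fl/fl (1312). In PKM2-/- sham hearts it was highest in replicate 3 (1254), beside 1109 in replicate 1. The part of these in the difference between sham hearts was not tested.

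Genotype was compared in each condition. After MI, 0 members were called between PKM2-/- and PKM2fl/fl hearts by limma, edgeR or DESeq2, beside 0.413% of all genes with limma, and 5 members had an unadjusted p under 0.05, beside 17.0% of all genes. The count of all genes rested on single libraries: limma called 85, 632 without MI replicate 3 of PKM2fl/fl and 11 to 32 without each of the other MI libraries, with 0 members in each. DESeq2 called 271 of 40116 genes, and edgeR 62 with its filter and 508 of 40116 without one. The point estimates lay mostly on one side: 42 of 45 members had a log2 fold change above 0, beside 49.5% of all genes, among them all 13 S phase members (median 0.26, from 0.015 to 0.53) and 21 of 23 mitotic members (median 0.11). All members were read in the same hearts, so this count is not one of separate measurements. The S phase mean per heart was 8.90, 8.81 and 9.31 in PKM2fl/fl and 9.38, 9.23 and 9.33 in PKM2-/- MI hearts, with overlap. The mitotic mean was 8.95, 8.93 and 9.36 in PKM2fl/fl and 9.05, 9.26 and 9.35 in PKM2-/- MI hearts, also with overlap. All 3 PKM2-/- hearts were above all 3 PKM2fl/fl hearts in 10 members, beside 10.7% of all genes, which were Mcm2, Mcm5, Mcm7, Gins2, Ccnd1, E2f8, Bub1b, Foxm1, Cdkn1a and Cdkn2c. Mcm2, with 482, 407 and 519 in PKM2fl/fl and 739, 594 and 701 in PKM2-/- MI hearts, had the smallest adjusted p (log2 fold change 0.53, standard error 0.15, adjusted p = 0.0984 from limma). Over 17 alternatives its adjusted p ranged from 0.0192 with DESeq2 to 0.347, and 3 passed. Mcm7, another helicase subunit, with 444, 464 and 552 and 696, 603 and 695, followed at 0.45 (0.14, adjusted p = 0.114 from limma), with 0.0263 to 0.334 over the 17 alternatives and 3 passed. For Mki67 the difference was 0.24 (95% interval -0.56 to 1.03) and for Ccnb1 -0.05 (-0.82 to 0.72), intervals that include 0 and reach past a 2-fold difference for Mki67. The 5 neutrophil markers summed to 1232 to 2138 in PKM2fl/fl and 3527 to 4521 in PKM2-/- MI hearts without overlap, while the leukocyte sums of 20804 to 37218 and 28141 to 33025 overlapped, and their part in the genotype difference was not tested.

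**Figure D5:**
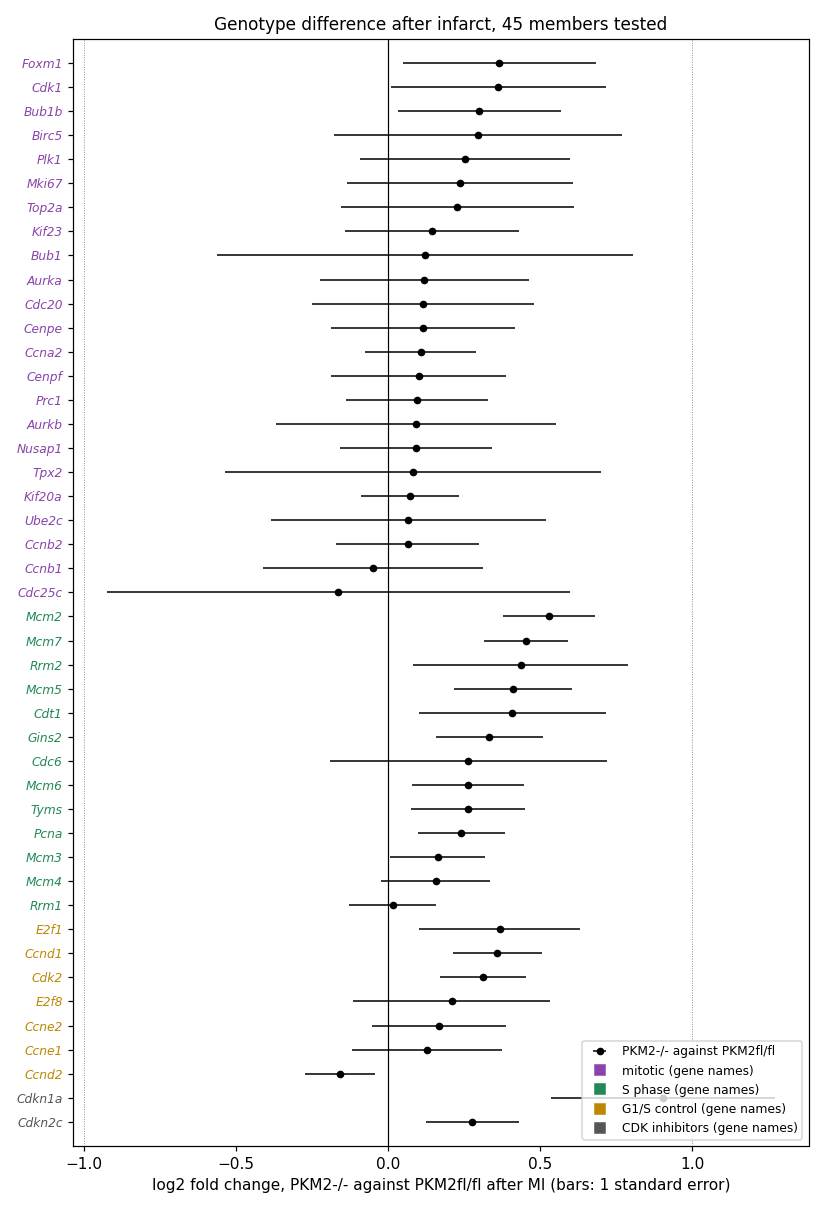
Log2 fold change of PKM2-/- against PKM2fl/fl hearts after MI (x axis) for the 45 members tested, with bars of 1 standard error and gene names coloured by role. All 13 S phase members lie at or above 0.015, Mcm2 has 0.53, Cdkn1a has 0.90, and 3 members (Ccnd2, Ccnb1 and Cdc25c) lie below 0, with none called.

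Whether MI acted differently in the genotypes was tested by an interaction term. By limma 0 members and 0 of all 20576 genes (0%) were called, and 3 members had an unadjusted p under 0.05, beside 8.28% of all genes. The interaction was above 0 in 38 of 45 members, beside 49.0% of all genes, a count over members read in the same hearts. Without MI replicate 3 of PKM2fl/fl limma called 226 genes, 31 higher and 195 lower, and still 0 members, while leaving out each other library gave 0 to 5 genes. That replicate had a ventricular cardiomyocyte marker sum of 179512, beside 409867 and 390552 in the other two hearts of its group, and the part of this in the count was not tested. DESeq2 and edgeR without a filter called 1 member, beside 34 and 304 of 40116 genes, and edgeR with its filter called 0 members and 0 genes. That member was Cenpf, whose response to MI was larger in PKM2-/- hearts by 1.63 (standard error 0.41, adjusted p = 0.361 from limma, and 1.86e-12 to 0.631 over 23 alternatives, of which 3 passed). The adjusted p of Cenpf was 0.03 with DESeq2 and 0.35 with edgeR with its filter. For Mki67 the difference of the responses was 0.30 (95% interval -0.82 to 1.42), for Top2a 0.24 (-0.91 to 1.39) and for Pcna 0.43 (-0.0036 to 0.86).

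After sham, 0 members were called between genotypes by limma, beside 0.00486% of all genes called, and 5 had an unadjusted p under 0.05, beside 9.95% of all genes. DESeq2 called 1 member, beside 111 of 40116 genes, and edgeR 0 with its filter and 3 without one, beside 1 gene and 305 of 40116 genes. Loci related to ribosomal RNA took 15.9% to 28.1% of reads in PKM2fl/fl and 29.6% to 48.2% in PKM2-/- sham hearts, without overlap, and their part in the genotype results after sham was not tested. Cenpf had 493, 277 and 277 in PKM2fl/fl and 125, 84.9 and 147 in PKM2-/- sham hearts, with all PKM2-/- hearts below. The genotypes differed by -1.52 in log2 (standard error 0.29, adjusted p = 0.0883 from limma). Over 17 alternatives the adjusted p ranged from 6.77e-20 to 0.273 and passed in 5, among them DESeq2 (3.10e-04). With edgeR with its filter it was 0.0916. Without sham replicate 3 of PKM2-/-, Cenpf was called, beside 49 of all genes tested by limma. After MI the same gene had a genotype difference of 0.10 (0.29). Cdkn1a had 1157, 787 and 510.3 in PKM2fl/fl and 1535, 2356 and 1299 in PKM2-/- sham hearts, and 1060.4, 632 and 854 and 1775, 1398 and 1516 after MI. All PKM2-/- hearts were above all PKM2fl/fl hearts of the same operation, yet neither difference was called (1.11, adjusted p = 0.282, and 0.90, adjusted p = 0.227, from limma). The exact two-sided permutation p for Cdkn1a was 0.1 in each, the smallest that 3 hearts against 3 allow. Of the 17 alternatives, edgeR without a filter was the 1 that passed in each, with adjusted p of 4.70e-12 after sham and 1.08e-08 after MI, and the highest adjusted p was 0.629 and 0.553.

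At baseline 0 members were called by limma, edgeR or DESeq2, beside 0.00972% of all genes with limma, and 3 had an unadjusted p under 0.05, beside 3.64%. Of the 45 members, 16 had a log2 fold change above 0, beside 49.2% of all genes, and below 0 were 18 of 23 mitotic members (median -0.34, beside -0.0034 over all genes). These members were again read in the same hearts. Over all genes limma called 2, DESeq2 16 of 40116, and edgeR 1 with its filter and 157 of 40116 without one. Loci related to ribosomal RNA took 17.4% and 22.3% of reads in PKM2fl/fl and 45.2% and 41.1% in PKM2-/- baseline hearts, without overlap, and their part in the baseline genotype results was not tested. Cdkn1a had 235 and 531 in PKM2fl/fl and 218 and 535 in PKM2-/- hearts, an overlap in which the hearts of each genotype differed more than 2-fold between themselves. Without baseline replicate 1 of PKM2-/-, which leaves 1 heart assumed to vary like the others, 3 members (the checkpoint kinase Bub1, the spindle assembly factor Tpx2 and Birc5) were called lower in PKM2-/-, beside 40 of all genes, 37 of them lower. The heart that remained had 0, 1 and 0 reads for Bub1, Tpx2 and Birc5.

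A wider list of 81 further cell cycle genes was measured beside the 46, and 80 passed the filter. It was drawn up by role, with earlier results of these data known, so it is not independent support for the 46. Among PKM2fl/fl hearts, 17 of 25 further S phase genes were called higher and 0 lower (median log2 fold change 1.36), and 28 of 32 further mitotic genes were called higher and 1 lower (median 2.82). Of 23 further control genes tested, 8 were called higher and 2 lower (median 0.77). The counts in PKM2-/- hearts were 19 and 0, 28 and 1, and 10 and 3, with medians of 1.84, 3.35 and 0.96. Among all genes tested, 12.4% were called higher and 11.1% lower in PKM2fl/fl hearts, and 14.5% and 14.3% in PKM2-/- hearts. The median over all genes was -0.0025 and 0.010. The replication genes Lig1, a DNA ligase, Dnmt1, the maintenance DNA methyltransferase, and Dbf4, the activator of CDC7, rose by 2.01, 1.56 and 2.52 in PKM2fl/fl hearts. Ect2, which starts the cleavage furrow, Smc2, a condensin subunit, and Incenp of the chromosomal passenger complex rose by 3.20, 2.41 and 2.34. Of the control genes, Cdc25b, E2f7 and Cdk6 rose by 1.46, 2.33 and 1.40.

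Some genes of the wider list went against their group. Pttg1 encodes securin, which holds separase inactive until anaphase, and had 1029, 973 and 938 after sham and 449.8, 455 and 298 after MI in PKM2fl/fl hearts, and 825, 786 and 999 and 335, 297 and 254 in PKM2-/- hearts. All MI hearts were below all sham hearts, with log2 fold changes of -1.31 (standard error 0.15, adjusted p = 7.09e-06 from limma) and -1.56 (0.15). Gmnn encodes geminin, which blocks the loading factor CDT1, and changed by -0.86 (0.16, adjusted p = 4.10e-04 from limma) and -0.60 (0.16, adjusted p = 0.00521), under a 2-fold change. Its target Cdt1, a member of the 46, had 19.98, 32.8 and 19.6 after sham and 223, 143 and 238 after MI in PKM2fl/fl hearts, called higher at 3.01 (0.31). Tfdp2, a dimerisation partner of E2F factors, E2f6, a repressing E2F factor, and Cdkn1c, the CDK inhibitor p57, changed by -1.49, -0.88 and -1.49 in PKM2fl/fl and by -1.77, -1.35 and -1.28 in PKM2-/- hearts. Each of these 6 values passed the adjusted p with limma. From baseline to sham in PKM2-/- hearts, 2 further S phase genes (Brca1 and Mcm10) were called higher. So were 3 further mitotic genes (Hmmr, Knl1 and Melk), beside 2.06% of all genes called higher. In PKM2fl/fl hearts limma called 0 of the wider list, beside 0.17% of all genes. There 25 of the wider list had an unadjusted p under 0.05, beside 8.81% of all genes.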

How the data were processed

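RNA was taken from the left ventricle of 16 mice, depleted of ribosomal RNA, made into NEBNext Ultra II libraries and sequenced as paired ends on a NextSeq 550. Per the study's methods, the authors used PRINSEQ for trimming, HISAT2 for alignment to mm10, featureCounts for counts per gene and DESeq2 for scaling. Tool versions and the strand setting are not given in the sources used here. The deposited signal values are normalized counts, each a read count divided by its library's DESeq2 size factor. From their steps whole reads were recovered for 100% of values (within 0.01 read), 20623769 to 71855101 per library. The deposited table also holds the authors' log2 fold changes with standard errors, Wald scores and p-values for their own baseline comparison, and none of these was used. Counting error is small for most genes at this depth, but low genes such as Birc5 and Cdc25c at baseline rest on few reads.

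Libraries were grouped by their labels, and each is a separate mouse. Genes with a mean normalized count of 10 or more (20576 of 55492) were fitted with limma 3.58.1 in R 4.3.3, with its trend option, on log2(normalized count + 1) and 1 mean for each of 6 groups, with Benjamini-Hochberg adjustment over all genes tested. limma was used as the main test because the deposited values are normalized, and edgeR 4.0.16 and DESeq2 1.42.0 were run on the recovered reads. Exact permutation tests used SciPy 1.17.1 in Python 3.11.15. p-values measure the spread between these mice. Fits were tested on simulated data. The members and all lists were chosen with earlier results of these data known. Any of the 46 members could be named. Values in every library were given for 20 listed members, for those with the largest and smallest change of each role after MI, and for up to 8 with an adjusted p under 0.05 in the other comparisons. Of the wider list, the 3 genes per group and direction with the smallest adjusted p in PKM2fl/fl hearts were named. Brca1, Mcm10, Hmmr, Knl1, Melk and Ccnd3 of that list, and the library values of Mcm7 and Cdt1, were picked after values were seen. Other scalings (total reads with and without loci related to ribosomal RNA, TMM), a pseudocount of 0.1, no filter, library weights, only the libraries compared, a replicate block and leaving out each library were tried.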

Additional observations from a re-analysis of the deposited data

Results flagged for a closer look

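Ccnd1 and Gins2 had genotype differences that pointed opposite ways in different conditions, with no overlap of the genotypes in each. Both were picked by this pattern, so the lack of overlap is not support for it. After MI, 10.7% of all genes lay higher in PKM2-/- hearts without overlap. For baseline and sham such a share is not given here. Ccnd1, cyclin D1, had a log2 fold change of PKM2-/- against PKM2fl/fl of -0.33 at baseline, 0.37 after sham and 0.36 after MI. The normalized counts were 1363 and 1056 in PKM2fl/fl against 929 and 980.4 in PKM2-/- hearts at baseline, and 679.7, 934 and 978 against 1103, 1076 and 1121 after sham. Gins2 had -0.58 at baseline and 0.33 after MI, with 197 and 180.5 against 128 and 123 at baseline and 254, 288 and 318 against 387, 322 and 374 after MI. The difference between conditions was tested after the data were seen. For Ccnd1 it was 0.70 after sham minus baseline (adjusted p = 0.583 from limma) and 0.69 after MI minus baseline (adjusted p = 0.365 from limma). For Gins2 after MI minus baseline it was 0.92 (adjusted p = 0.341 from limma). Neither gene passed, and 0 and 5 of 20576 genes did in these tests. The baseline groups hold 2 hearts each, so a lack of overlap there is easily met.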

How the results depend on the processing

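After MI, 36 to 44 members were called in PKM2fl/fl and 40 to 44 in PKM2-/- hearts over 12 alternatives, and 36 to 40 and 40 to 41 when 1 library was left out. Over 18 settings the wider list gave 17 to 19 S phase, 28 to 29 mitotic and 9 to 12 control genes called in PKM2fl/fl, and 18 to 23, 29 to 31 and 12 to 15 in PKM2-/- hearts. In PKM2-/- hearts the S phase median was 2.89 with total-read scaling and 2.74 without loci related to ribosomal RNA, and the mitotic median 4.25 and 4.09, and they ranged from 2.19 to 2.57 and from 3.45 to 3.85 with 1 library left out. For the interaction 1 member was called with total-read scaling, edgeR without a filter and DESeq2. Between genotypes after sham, 1 was called with total-read scaling, DESeq2 and library weights, 3 with edgeR without a filter, and 0 to 1 with 1 library left out. Between genotypes at baseline the latter range was 0 to 3. For sham against baseline, PKM2fl/fl hearts gave 3 with total-read scaling, 14 with edgeR without a filter, 11 with DESeq2 and with library weights, and 0 to 6 with 1 library left out. PKM2-/- hearts gave 6 with edgeR, 5 with only the libraries compared, and 3 to 11 with 1 library left out. In the 100 bases before the start, motif shares were 18.2% and 5.56% for E2F-type letters in S phase and mitotic promoters, and 0% for CHR with CCAAT in S phase promoters. The cause of these changes was not tested. Total-read scaling moved the median of all genes by 0.36 between genotypes after MI, by -0.33 after sham, by -0.59 at baseline and by 0.68 in the interaction.

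Values that changed sign were mostly those of Cdkn1a, none of which had been called. For MI in PKM2fl/fl hearts it had -0.077 with total-read scaling, -0.045 with library weights, and -0.20 to 0.39 with 1 library left out. For MI in PKM2-/- hearts it had 0.41 with total-read scaling, 0.25 without loci related to ribosomal RNA, and -0.29 to 0.14 with 1 library left out. Its interaction was 0.48 with total-read scaling and -0.50 to 0.094 with 1 library left out, and its baseline genotype difference -0.69 to 0.60. Cenpf after MI had a genotype difference of -0.0044 to 0.27 with 1 library left out.

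Libraries with the same number come from different mice, and their deviations were not related (r from -0.20 to 0.13, median -0.027, over 0.1 in 1 of 36 pairs). With the replicate number as a block, 38, 41 and 10 members were called for MI in PKM2fl/fl, MI in PKM2-/- and sham against baseline in PKM2-/- hearts, and 0 in the other comparisons.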
